A study of Mus musculus with 8 samples.

Results

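The genes described here are 10 genes of the heart's contractile unit, the sarcomere: the myosin heavy chains Myh6, Myh7 and Myh7b, the actins Acta1 and Actc1, the troponin I genes Tnni1 and Tnni3, the tropomyosin gene Tpm2, and 2 stress-induced sarcomere proteins, Fhl1 and Ankrd1. They were chosen by symbol in the platform annotation, and are 10 of the 18193 genes measured, read by 16 probe sets that name 1 gene each. A further 2 probe sets name Myh7 and Myh6 together and were not used for either gene. Messenger RNA was measured in whole hearts of female mice, on 8 Affymetrix mouse arrays that each carried 1 heart. The groups were knock-out (KO) hearts at 4 weeks and wild-type (WT) hearts at 4 weeks, and KO hearts at 10 weeks and WT hearts at 10 weeks, with 2 mice in each. KO mice carried a conditional gene deletion under MCK (muscle creatine kinase), a promoter active in heart and skeletal muscle cells. Mice of the same age came as littermates, and the labels give the 2 ages separately, so an effect of age cannot be told apart from one of litter or of processing day. The labels do not describe the WT mice further, and nothing in them says how many litters stand behind the series.

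The sarcomere is built from thick filaments of myosin and thin filaments of actin, with troponin and tropomyosin switching the thin filament on when calcium rises. Many of its proteins exist as isoforms that the mouse heart exchanges around birth: Myh7, Acta1 and Tnni1 are prominent in the fetal heart, and Myh6, Actc1 and Tnni3 in the adult ventricle. A return of Myh7 and Acta1 messenger RNA is a well known feature of loaded and failing mouse hearts, and Ankrd1 and Fhl1, which bind titin in the sarcomere, are known to be induced there too.

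Values below are log2 intensities, in which a step of 1 is a doubling, and means are given ± SD (n = 2 mice per group). Differences are KO minus WT ± SE from limma, fitted to all 8 arrays and adjusted over all 18193 genes (Benjamini-Hochberg), and a gene is said to rise or fall where the adjusted p was under 0.05. Median linear intensity per array was 34.3 to 37.3, and precision is limited by having 2 arrays a group. In whole tissue, fewer cells of a type and less RNA per cell cannot be told apart. All 9 cardiomyocyte markers were measured, with a summed linear intensity of 92998 and 94003 in 4-week KO hearts and 99433 and 99678 in 4-week WT hearts, and of 77196 and 87121 in 10-week KO hearts and 82898 and 96847 in 10-week WT hearts. Of these 9 markers 1 was called higher (Mybpc3) and 3 lower (Ryr2, Pln and Ckm) in 10-week KO hearts. Of all genes 5.19% were called higher and 6.89% lower there. Replicate 1 of the 10-week WT hearts stood apart, with kidney markers (3 of 3 measured) summing to 892 there. On the other WT arrays they summed to 146 to 272, and on the KO arrays to 70.6 to 87.6. The sum of 892 on replicate 1 of the 10-week WT hearts came mostly from Kap, at 9.73 there and 5.61 to 7.90 on the others. Umod and Slc34a1 were dim there, at 4.42 and 4.34. Its liver markers (3 of 4 measured) summed to 3704, against 129 to 3865 on the others. The highest liver sum, 3865, was on replicate 2 of the 4-week KO hearts. Kap read 5.61 to 5.96 in KO hearts and 6.90 to 9.73 in WT hearts over both ages. It was called lower in 10-week KO hearts, at -2.70 (limma, adjusted p = 0.0218), and the cause was not tested. Differences of the 10 genes, of the isoform pairs and of named list genes at 10 weeks are given with and without replicate 1 of the 10-week WT hearts.

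At 10 weeks 5 of the 10 genes changed in KO hearts. Myh7, Acta1, Fhl1 and Ankrd1 rose between 3.79-fold and 8.36-fold, and Tnni3 fell. The background is 12.1% of all genes called in either direction, 5.19% higher and 6.89% lower. With genes under a mean log2 of 6 left out, 22.2% of 9322 genes were called, and 5 of the 9 genes described here that remained. The median difference of the 10 genes was 0.09, against 0.00 for all genes, and 7 of the 10 differences were above 0. The KO and WT arrays did not overlap for these same 5 genes, where 47.1% of all genes had no overlap. At 4 weeks none of the 10 passed the test (0 called by limma), where 0.0275% of all genes were called, and 2 of the 10, Acta1 and Myh7, had an unadjusted p under 0.05. With only the 4-week arrays in the fit 1 gene, Acta1, passed. The KO and WT arrays of 4 weeks did not overlap for 7 of the 10 genes, 4 higher and 3 lower, where 36.9% of all genes had no overlap.

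**Figure D1:**
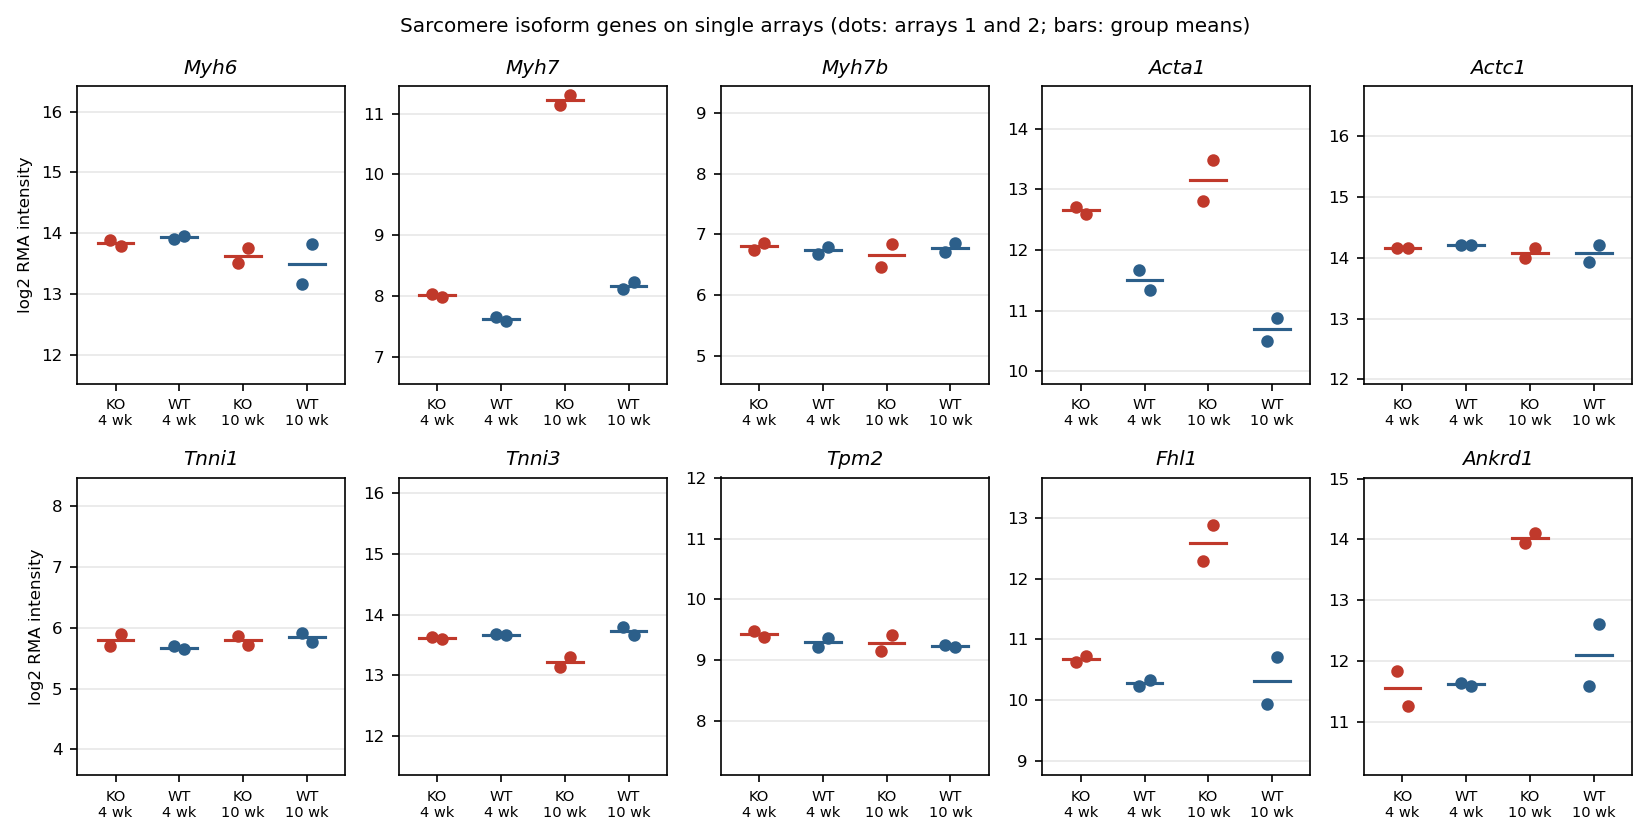
Log2 RMA intensity (vertical axes, all spanning the same range) of the 10 genes on every array, KO in red and WT in blue at 4 and 10 weeks, with dots for single arrays and bars for the mean of 2. Myh7, Acta1, Fhl1 and Ankrd1 lie highest in 10-week KO hearts, Tnni3 lies lowest there, and the other 5 genes overlap between KO and WT at 10 weeks.

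Myh7 encodes the slow beta myosin heavy chain, the main ventricular motor before birth in the mouse. It read 11.15 and 11.31 in 10-week KO hearts and 8.11 and 8.23 in 10-week WT hearts. The KO arrays lay far above the WT arrays, and each pair was tight. The difference was 3.06 ± 0.12, or 8.36-fold, with a 95% interval of 2.79 to 3.34 (limma, adjusted p = 1.27e-05), and 3.0 without the WT array that stood apart. At 4 weeks Myh7 read 8.03 and 7.98 in KO hearts and 7.65 and 7.58 in WT hearts. The arrays did not overlap, but the difference of 0.39 ± 0.12 did not pass the test (adjusted p = 0.999).

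Myh6 encodes the fast alpha myosin heavy chain, the main motor of the adult mouse ventricle. Its brighter probe set read 13.50 and 13.76 in 10-week KO hearts and 13.16 and 13.82 in 10-week WT hearts, so both KO values lay between the WT values. The difference of 0.14 ± 0.20 did not pass the test (adjusted p = 0.765; 95% interval -0.31 to 0.59), and it was -0.19 without the WT array that stood apart. At 4 weeks the values were 13.89 and 13.79 in KO hearts and 13.91 and 13.96 in WT hearts, a difference of -0.10 ± 0.20 (adjusted p = 0.999). The dimmer probe set of Myh6 gave -0.23 ± 0.40 at 10 weeks and -0.59 ± 0.40 at 4 weeks, neither past the test (adjusted p = 0.847 and 1 over all probe sets). The brighter probe set was among the 68 brightest of 45037 on every array, and saturation at that level was not tested. The dimmer one lay lower, at 9.08 to 10.83.

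Myh7b, an ancient slow myosin gene whose transcript carries a microRNA, read between 6.47 and 6.85 on the 8 arrays. Its differences were -0.13 ± 0.15 at 10 weeks (-0.20 without the WT array that stood apart) and 0.07 ± 0.15 at 4 weeks, and the groups overlapped at both ages. All 3 myosin genes carry a muscle microRNA inside the gene on the same strand, and the mature forms are shown because Myh7, the host of miR-208b, rose while the other hosts did not pass the test. The microRNAs themselves were not measured here. Sequences are from RefSeq (GRCm38.p6), written 5′ to 3′ with the seed, bases 2 to 8, in capitals.
miR-208a-3p in Myh6 (chr14:54949072-54949093, minus strand): aUAAGACGagcaaaaagcuugu
miR-208b-3p in Myh7 (chr14:54975710-54975731, minus strand): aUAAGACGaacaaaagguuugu
miR-499-5p in Myh7b (chr2:155622893-155622913, plus strand): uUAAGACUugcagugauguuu
The seeds of miR-208a-3p and miR-208b-3p are the same in all 7 bases, and that of miR-499-5p matches each of them in 6 of 7. Position by position from the 5′ end, the 22 bases of miR-208a-3p and miR-208b-3p are equal at 19.

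Acta1 encodes skeletal alpha actin, the thin filament actin of skeletal muscle and of the fetal heart. It read 12.81 and 13.48 in 10-week KO hearts and 10.51 and 10.88 in 10-week WT hearts. The groups were far apart, and the difference was 2.45 ± 0.22, or 5.48-fold (limma, adjusted p = 0.000250), and 2.27 without the WT array that stood apart. At 4 weeks Acta1 read 12.71 and 12.59 in KO hearts and 11.68 and 11.34 in WT hearts. Both KO arrays lay above both WT arrays by 1.14 ± 0.22, or 2.21-fold, the largest difference among the 10 genes at that age, and it did not pass over all genes (adjusted p = 0.532). Fitted to the 4-week arrays alone, the same difference had an adjusted p of 0.0471, and over the other alternatives the adjusted p stayed above 0.05.

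Actc1 encodes cardiac alpha actin, the main actin of the adult heart. It read 14.00 and 14.16 in 10-week KO hearts, both between the 13.93 and 14.22 of the 10-week WT hearts, a difference of 0.01 ± 0.14 (adjusted p = 0.986; 95% interval -0.30 to 0.31), and of -0.14 without the WT array that stood apart. At 4 weeks it read 14.16 on both KO arrays and 14.21 on both WT arrays, a difference of -0.05 ± 0.14 (adjusted p = 0.999). The array maxima were 14.24 to 14.34, and Actc1 was among the 8 brightest probe sets on every array. Whether so bright a signal is compressed was not tested.

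The stretches of 250 bases before the RefSeq start (GRCm38.p6) of 5 of these genes are shown, Acta1, Myh7, Fhl1 and Ankrd1 because they rose and Actc1 because it did not pass the test. Capitals mark the 3 motifs found of the 4 searched on both strands. These are TATAAA (the TATA box), the MCAT core bound by TEAD factors, which reads CATTCC, and the CArG box bound by serum response factor. The MEF2 site, the other motif searched, was in none of the windows of the 10 genes. The motifs were chosen with the expression values known, and a match is only a run of letters.
Acta1 (chr8:123894776-123895025, minus strand): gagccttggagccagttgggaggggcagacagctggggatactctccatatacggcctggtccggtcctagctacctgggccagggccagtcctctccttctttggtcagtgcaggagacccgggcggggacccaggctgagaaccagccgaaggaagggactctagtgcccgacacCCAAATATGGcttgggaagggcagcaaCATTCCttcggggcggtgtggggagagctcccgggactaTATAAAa
Actc1 (chr2:114052876-114053125, minus strand): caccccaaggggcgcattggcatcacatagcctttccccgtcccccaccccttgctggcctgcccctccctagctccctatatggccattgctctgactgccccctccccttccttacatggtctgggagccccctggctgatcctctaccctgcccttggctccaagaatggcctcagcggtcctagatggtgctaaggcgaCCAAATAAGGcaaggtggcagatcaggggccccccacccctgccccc
Myh7 (chr14:54994627-54994876, minus strand): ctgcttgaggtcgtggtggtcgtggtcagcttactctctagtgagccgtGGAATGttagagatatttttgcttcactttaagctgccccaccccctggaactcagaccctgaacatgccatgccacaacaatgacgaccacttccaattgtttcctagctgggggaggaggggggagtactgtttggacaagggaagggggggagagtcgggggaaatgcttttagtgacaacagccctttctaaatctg
Fhl1 (chrX:56779433-56779682, plus strand): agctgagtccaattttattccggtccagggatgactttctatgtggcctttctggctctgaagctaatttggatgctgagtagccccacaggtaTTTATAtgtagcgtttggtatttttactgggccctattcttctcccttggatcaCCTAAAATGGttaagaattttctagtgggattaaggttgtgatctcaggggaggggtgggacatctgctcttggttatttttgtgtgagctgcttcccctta
Ankrd1 (chr19:36119845-36120094, minus strand): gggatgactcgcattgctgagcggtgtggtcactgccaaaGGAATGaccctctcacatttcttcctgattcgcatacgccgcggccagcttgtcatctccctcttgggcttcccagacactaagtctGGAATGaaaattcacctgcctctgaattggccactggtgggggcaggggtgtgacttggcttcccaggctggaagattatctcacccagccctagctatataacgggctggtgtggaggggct
No capital stretch overlaps another motif. In Acta1 the CArG box lies 73 to 64 bases before the start, CATTCC 46 to 41 and TATAAA 7 to 2, and in Actc1 a CArG box lies 47 to 38 bases before it. Myh7 holds CATTCC on the opposite strand 201 to 196 bases before its most upstream start. The Fhl1 window lies inside the gene as RefSeq bounds it. It holds a CArG box 102 to 93 bases before its most upstream start and TATAAA on the opposite strand 156 to 151 bases before it. Ankrd1 holds CATTCC on the opposite strand in 2 places, 123 to 118 and 210 to 205 bases before the start. With 1 window per gene, at its most upstream start, CATTCC was in 4 of 10 genes (Acta1, Ankrd1, Myh6 and Myh7), against 12.6% of 32851 windows in the whole table. A CArG box was in 3 of 10 (Acta1, Actc1 and Fhl1), against 1.47%, and TATAAA in 2 of 10 (Acta1 and Fhl1), against 12.4%.

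Tnni3 encodes cardiac troponin I, the adult inhibitory subunit of troponin. It read 13.13 and 13.30 in 10-week KO hearts and 13.80 and 13.67 in 10-week WT hearts. Both KO arrays lay below both WT arrays, and Tnni3 fell by 0.52 on the log2 scale, 1.43-fold lower (SE 0.12; limma, adjusted p = 0.0233). Several alternatives ended the call. Without the WT array that stood apart the difference was -0.45 (adjusted p = 0.0793), without replicate 1 of the 10-week KO hearts -0.43 (0.144), and with only the 10-week arrays the adjusted p was 0.116. It was also lost with array weights (0.0549) and without either 4-week WT array (0.0564 for each). At 4 weeks Tnni3 read 13.64 and 13.59 in KO hearts and 13.68 and 13.67 in WT hearts, a difference of -0.06 ± 0.12 (adjusted p = 0.999).

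Tnni1, the slow skeletal and fetal troponin I, was dim, at 5.65 to 5.92 on the 8 arrays. Its differences were -0.05 ± 0.13 at 10 weeks (95% interval -0.34 to 0.24, and 0.021 without the WT array that stood apart) and 0.12 ± 0.13 at 4 weeks, with overlapping groups at both ages. Tpm2, the beta tropomyosin, is read by 4 probe sets. The brightest lay between 9.15 and 9.47, with differences of 0.05 ± 0.13 at 10 weeks (0.063 without the WT array that stood apart) and 0.14 ± 0.13 at 4 weeks. The 3 others gave 0.15, -0.43 and -0.14 at 10 weeks, and none of the 4 passed the test (adjusted p of 0.352 to 0.907 over all probe sets).

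Fhl1, a LIM domain protein that binds titin, read 12.29 and 12.88 in 10-week KO hearts and 9.93 and 10.70 in 10-week WT hearts. The groups were more than 1.5 log2 units apart at their nearest, although each pair was spread. The difference was 2.27 ± 0.25, or 4.81-fold (limma, adjusted p = 0.000687), and 1.88 without the WT array that stood apart. A second Fhl1 probe set was dim, at 4.30 to 5.46, and gave 0.55 ± 0.21 (adjusted p = 0.171 over all probe sets). At 4 weeks Fhl1 read 10.62 and 10.72 in KO hearts and 10.24 and 10.34 in WT hearts, a difference of 0.38 ± 0.25 (adjusted p = 0.999).

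Ankrd1, the cardiac ankyrin repeat protein of the nucleus and of titin's I band, read 13.93 and 14.11 in 10-week KO hearts and 11.58 and 12.61 in 10-week WT hearts. The KO pair was tight and near the top of the scale, where saturation was not tested, and the WT pair differed by more than 1 log2 unit. The difference was 1.92 ± 0.30, or 3.79-fold (limma, adjusted p = 0.00322), and 1.41 without the WT array that stood apart, against 2.44 without the other. Its second probe set gave 1.83 ± 0.31 (adjusted p = 0.00614 over all probe sets). At 4 weeks Ankrd1 read 11.83 and 11.26 in KO hearts and 11.64 and 11.59 in WT hearts, the WT values lying between the KO values, and the difference was -0.07 ± 0.30 (adjusted p = 0.999).

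**Figure D2:**
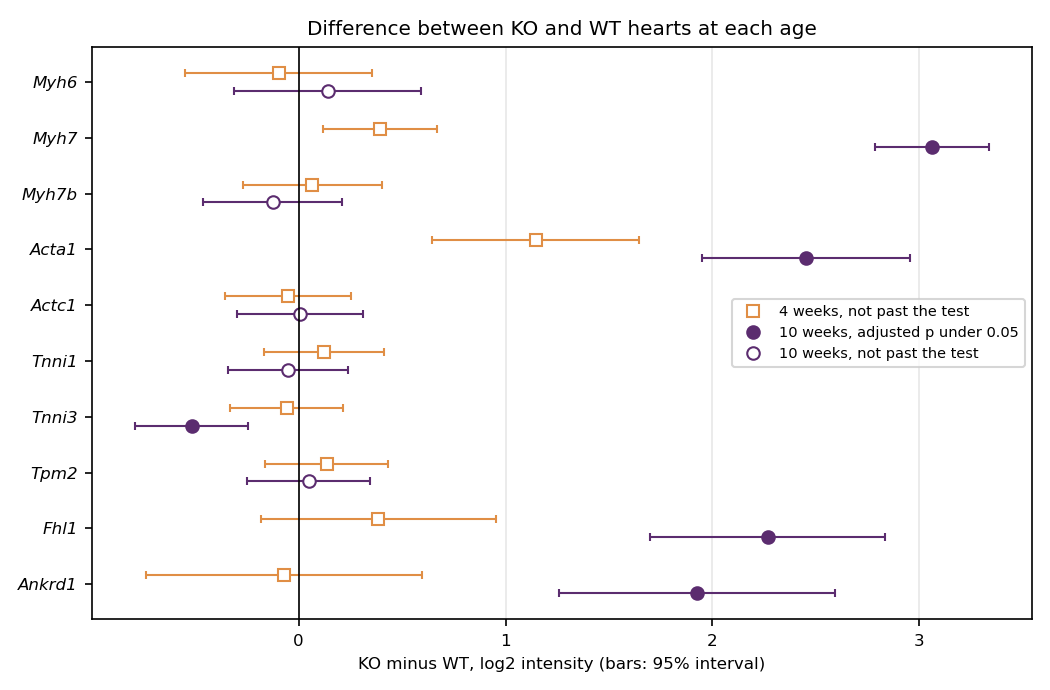
KO minus WT difference in log2 intensity (horizontal axis) of each gene at 4 weeks (squares) and 10 weeks (circles), with 95% intervals, filled where the adjusted p was under 0.05. Myh7 at 3.06, Acta1 at 2.45, Fhl1 at 2.27 and Ankrd1 at 1.92 are filled at 10 weeks, as is Tnni3 at -0.52, and no gene is filled at 4 weeks.

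The KO minus WT difference itself grew between 4 and 10 weeks for 3 of the 10 genes, where 2.08% of all genes were called. For Myh7 the change of the difference was 2.67 ± 0.17 (limma interaction, adjusted p = 0.000814), for Ankrd1 1.99 ± 0.42 (0.0483) and for Fhl1 1.88 ± 0.36 (0.0348). That of Acta1, at 1.31 ± 0.32, did not pass (adjusted p = 0.0761), and that of Tnni3 was -0.46 ± 0.17 (0.253). Myh7 kept its call without each single array, whereas Fhl1 and Ankrd1 lost theirs without each of 6 arrays: either KO or WT array of 4 weeks, or either KO array of 10 weeks. Their changes without those arrays were 1.59 to 2.18 for Fhl1 and 1.71 to 2.28 for Ankrd1. Ankrd1 also missed the threshold with every probe set tested singly (adjusted p = 0.0585). Both calls were lost with arrays centred on their medians and with the mean of the probe sets of a gene, which gave 1.21 for Fhl1 and 1.96 for Ankrd1.

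Along the other axis, from 4 to 10 weeks, the same 3 genes rose within KO hearts, where 10.5% of all genes were called. Myh7 rose by 3.22 ± 0.12 (adjusted p = 8.12e-06), Ankrd1 by 2.48 ± 0.30 (0.00133) and Fhl1 by 1.91 ± 0.25 (0.00198). Acta1 differed by 0.49 ± 0.22 (adjusted p = 0.208). In WT hearts none of the 10 was called by limma (0 of 10, where 0.115% of all genes were), and 2 had an unadjusted p under 0.05. These were Myh7, at 0.55 ± 0.12 (adjusted p = 0.15), and Acta1, at -0.82 ± 0.22 (0.194). Both age comparisons share arrays with the KO minus WT ones. The counts in WT hearts, of these genes and of all genes, were largest without replicate 2 of the 10-week WT hearts. That fit leaves at 10 weeks only the WT array that stood apart.

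The order of the group means was not the same for the fetal isoforms. Acta1 ran from 13.15 ± 0.47 in 10-week KO hearts and 12.65 ± 0.08 in 4-week KO hearts to 11.51 ± 0.24 in 4-week WT hearts and 10.69 ± 0.26 in 10-week WT hearts, so both KO groups lay above both WT groups. Myh7 ran from 11.23 ± 0.12 in 10-week KO hearts to 8.17 ± 0.08 in 10-week WT hearts, 8.01 ± 0.04 in 4-week KO hearts and 7.62 ± 0.05 in 4-week WT hearts, so only the older KO group stood out. Fhl1 stood at 12.58 ± 0.42 in 10-week KO hearts, with the other groups within 10.29 to 10.67. Ankrd1 stood at 14.02 ± 0.12 there, with the others within 11.55 to 12.10. Between neighbours in these orders, Myh7 and Ankrd1 passed the test in 10-week KO against 10-week WT hearts and Fhl1 in 10-week KO against 4-week KO hearts. The other neighbours tested did not pass, and pairs that differ in both genotype and age were not tested.

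The isoforms of a family were set against each other on each array. The log2 difference Myh7 minus Myh6, centred on its mean over the 8 arrays, was 2.61 and 2.52 in 10-week KO hearts and -0.08 and -0.63 in 10-week WT hearts, a KO minus WT change of 2.92. At 4 weeks it was -0.89 and -0.84 in KO hearts and -1.29 and -1.41 in WT hearts, a change of 0.49. With the dimmer probe set of Myh6 the changes were 3.30 at 10 weeks and 0.98 at 4 weeks. Acta1 minus Actc1 was 0.95 and 1.44 in 10-week KO hearts and -1.29 and -1.21 in 10-week WT hearts, a change of 2.45, and 0.69 and 0.56 in 4-week KO hearts and -0.40 and -0.74 in 4-week WT hearts, a change of 1.19. Tnni1 minus Tnni3 was 0.52 and 0.20 in 10-week KO hearts and -0.10 and -0.11 in 10-week WT hearts, a change of 0.47. At 4 weeks it was -0.16 and 0.08 in KO hearts and -0.20 and -0.24 in WT hearts, a change of 0.18, and Tnni1 was dim. Without the WT array that stood apart the 10-week changes were 3.20 for Myh7 minus Myh6, 2.41 for Acta1 minus Actc1 and 0.47 for Tnni1 minus Tnni3. In each of the 3 pairs every KO array lay above every WT array of the same age. Such separation was common among single genes, of which 36.9% at 4 weeks and 47.1% at 10 weeks had no overlap in either direction. The share over pairs of genes was not computed. Exact two-sided permutation tests gave p = 0.333 within each age and p = 0.0556 over both ages for each pair (adjusted p = 0.167 over the 9 comparisons made), the smallest these designs allow, so the tests could not pass 0.05.

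**Figure D3:**
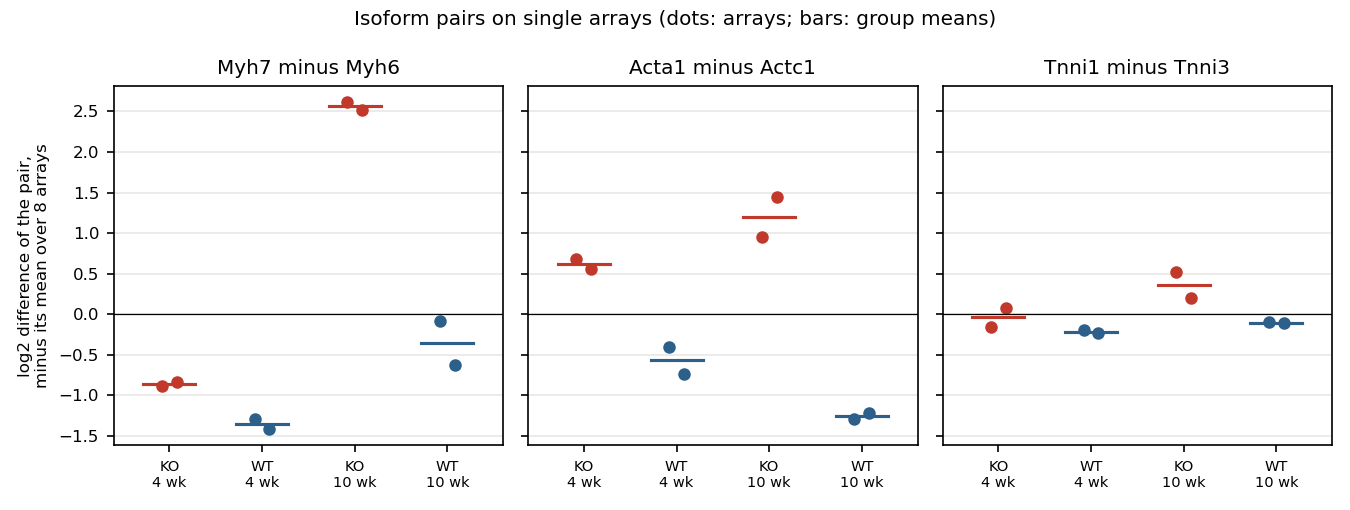
Difference in log2 intensity of the fetal minus the adult isoform, centred on its mean over the 8 arrays (vertical axis), for 3 pairs, with KO in red and WT in blue, dots for arrays and bars for group means. The 10-week KO arrays of Myh7 minus Myh6 lie at 2.61 and 2.52, and those of Acta1 minus Actc1 at 0.95 and 1.44.

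The rest of the contractile apparatus was followed in 8 lists of 124 entries. Beside the 12.1% of all genes given with the lists below, 22.2% of genes with a mean log2 of at least 6 were called at 10 weeks. In 10-week KO hearts 2 of 14 thick filament and M band genes were higher and 1 was lower, with a median difference of 0.16, where 12.1% of all genes were called. Myom2, a myomesin of the M band, rose by 1.09 ± 0.25, and Mybpc3, the cardiac myosin-binding protein C, by 0.98 ± 0.18. Mylk3, the kinase of the cardiac myosin light chain, fell by 0.65 (SE 0.17). Of 13 thin filament genes 1 was higher and 1 lower, a share near the same 12.1%, with a median of 0.13: Tpm4, a tropomyosin, rose by 0.78 ± 0.15 and Tnnt1, the slow skeletal troponin T, fell by 0.95 (SE 0.15). The adjusted p of these 5 genes lay between 0.00385 and 0.0401. Of the thick filament list 1 gene, Mybpc3, was called without replicate 1 of the 10-week KO hearts or without either 4-week WT array, and 0 without replicate 2 of the 10-week KO hearts. The count of the thin filament list was smaller without replicate 2 of the 10-week KO hearts, where Tnnt1 kept its call. It was larger without replicate 2 of the 10-week WT hearts, and the count over all genes moved the same way in both fits. The rise of Tpm4 did not pass without either 10-week KO array, at 0.81 and 0.76 (adjusted p = 0.0520 and 0.0600). These 5 differences were 0.62 for Myom2, 0.69 for Mybpc3, -0.91 for Mylk3, 0.61 for Tpm4 and -0.90 for Tnnt1 without the WT array that stood apart, all past the test. Mylk3 was not called when any other single array was left out. A dim further probe set of Myom2 gave 0.13 (adjusted p = 0.719 over all probe sets), and its other 2 gave 1.08 and 1.06.

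Of 21 Z disc and stress-sensing genes 5 were higher and 3 lower, with a median of 0.15, against 12.1% of all genes called. Xirp1, an actin-binding protein of the intercalated disc, read 9.86 and 11.02 in 10-week KO hearts and 7.74 and 8.90 in 10-week WT hearts, a rise of 2.12 ± 0.40 (adjusted p = 0.00862). Synpo2l, a Z disc protein that binds actinin, rose by 1.86 ± 0.34 (0.00739), and Flnc, the muscle filamin, by 1.26 ± 0.22 (0.00544). Myot, the Z disc protein myotilin, read 6.91 and 6.97 in 10-week KO hearts and 8.77 and 8.75 in 10-week WT hearts, a fall of 1.82 (SE 0.22; adjusted p = 0.000997). A dim further probe set of Synpo2l gave -0.04, and its other 2 gave 1.66 and 2.61. The list counted 4 higher and 3 lower without the WT array that stood apart, and 2 higher and 3 lower without replicate 2 of the 10-week KO hearts. Xirp1 and Synpo2l were not called without that KO array, at 1.54 and 1.58 (adjusted p = 0.0589 and 0.0651). Without the WT array that stood apart Xirp1 differed by 1.55, Synpo2l by 1.24, Flnc by 0.97 and Myot by -1.81, all past the test. Of 8 assembly chaperones 2 were higher, the methyltransferase Smyd2 by 1.27 ± 0.17 and the small heat shock protein Hspb7 by 0.99 ± 0.27 (adjusted p = 0.00183 and 0.0453). Smyd2 was the chaperone still called without either 10-week KO array or any single 4-week array, and Hspb7 was not called there. Without the WT array that stood apart Smyd2 differed by 1.06 past the test, and Hspb7 by 0.48 (adjusted p = 0.106).

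**Figure D4:**
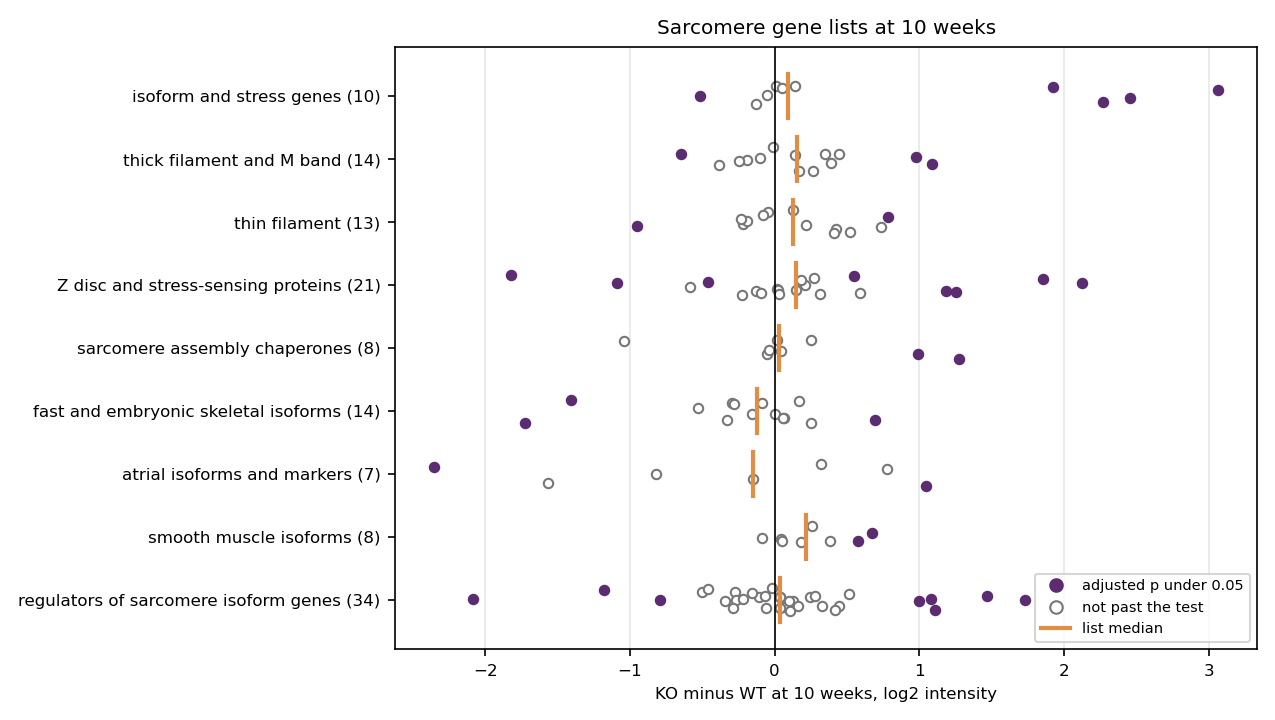
KO minus WT difference at 10 weeks in log2 intensity (horizontal axis) for every measured gene of the isoform set and of 8 sarcomere lists (rows, number of genes in parentheses), filled where the adjusted p was under 0.05, with orange bars for list medians. All list medians lie between -0.15 and 0.22, and Myh7 at 3.06 lies furthest to the right.

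Isoforms of other muscles were followed beside Myh7 and Acta1. Of 14 fast and embryonic skeletal genes 1 was higher and 2 lower, with a median of -0.12, where 12.1% of all genes were called. Mybpc2, the fast myosin-binding protein C, fell by 1.73 (SE 0.15; adjusted p = 0.000219) and Myl1, a fast alkali light chain, by 1.40 (SE 0.27; 0.00859). Tnnt3, the fast troponin T, was dim at 3.41 to 4.82 and rose by 0.69 ± 0.18 (0.0359). Of this list 1 gene, Mybpc2, was called without replicate 1 of the 10-week KO hearts. The differences without the WT array that stood apart were -1.94 for Mybpc2, -1.29 for Myl1 and 0.80 for Tnnt3, all past the test. Myl1 was not called without either 10-week KO array, and Tnnt3 was called only without replicate 2 of the 10-week KO hearts or replicate 1 of the 10-week WT hearts when a single array was left out. The 8 skeletal muscle markers summed to 355 and 360 in 10-week KO hearts and to 379 and 440 in 10-week WT hearts. The sum of 440 was on the WT array that stood apart, and the 1 marker called, Tnnt3, was higher in KO hearts. Of 8 smooth muscle genes 2 were higher, beside the same 12.1% of all genes, Tagln by 0.58 ± 0.12 and Myl9 by 0.67 ± 0.18 (adjusted p = 0.0142 and 0.0422), with a median of 0.22. Without replicate 1 of the 10-week KO hearts 0 of them were called, and without any other single array but replicate 2 of the 10-week WT hearts 1 was, Tagln. Tagln differed by 0.62 without the WT array that stood apart, and Myl9 by 0.42 (adjusted p = 0.174). Of 7 atrial genes Nppa, a natriuretic peptide, rose by 1.04 ± 0.24 (0.0222) and Sln fell by 2.35 (SE 0.48; 0.0120), and neither call held without either of the 10-week KO arrays. Nppa also missed the threshold without the WT array that stood apart, at 0.82 (adjusted p = 0.0851), while Sln passed at -2.66. Nppa read 14.23 and 14.29 in 10-week KO hearts, at the top of those arrays, whose maxima were 14.24 and 14.29, and saturation there was not tested. A dim further probe set of Sln gave -0.20 (adjusted p = 0.494 over all probe sets). Myl7 and Myl4 differed by -1.56 and -0.82 at 10 weeks, and at 4 weeks Sln, Myl7 and Myl4 by 1.80, 1.27 and 1.32, none past the test. Of the 7 differences 3 were above 0 at 10 weeks and 6 at 4 weeks. The change of the Sln difference was -4.15 ± 0.68 (limma interaction, adjusted p = 0.0211). The count of atrial genes called was larger without replicate 2 of the 10-week WT hearts, as was that of all genes.

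Of 34 regulators of sarcomere isoform genes 5 were higher and 3 lower at 10 weeks, with a median of 0.04, where 12.1% of all genes were called, 5.19% higher and 6.89% lower. The share called was 22.2% among genes with a mean log2 of at least 6. Dio2, the deiodinase that makes active thyroid hormone, a known regulator of the Myh6 and Myh7 pair, read 6.67 and 6.57 in 10-week KO hearts and 4.67 and 5.11 in 10-week WT hearts, a rise of 1.73 ± 0.20 (adjusted p = 0.000820). Rcan1, an inhibitor and target of calcineurin signalling, rose by 1.47 ± 0.31 (0.0139). Hopx, a homeodomain partner of serum response factor, read 10.27 and 10.48 in 10-week KO hearts and 12.45 and 12.47 in 10-week WT hearts, a fall of 2.09 (SE 0.13; adjusted p = 3.4e-05). Hdac9, a histone deacetylase that restrains MEF2, fell by 1.18 (SE 0.25; 0.0132). The probe sets used for Dio2 and Hdac9 were themselves dim, at 4.47 to 6.67 and 4.21 to 6.30 on the 8 arrays. Further probe sets, about as dim, gave 0.23 and 1.46 for Dio2 and -0.25 for Hdac9. Of these further probe sets only that at 1.46 passed the test over all probe sets. With the WT array that stood apart left out, the differences were 1.51 for Dio2, 0.88 for Rcan1, -2.10 for Hopx and -1.49 for Hdac9, all past the test. Rcan1 was not called without either 10-week KO array, nor Hdac9 without replicate 1 of them. Of this list 3 genes were called without replicate 1 of the 10-week KO hearts, 5 without replicate 2 and 6 without the WT array that stood apart. Without that array the lists of thick filament, thin filament, skeletal and assembly genes counted 3, 2, 3 and 2 called genes, as many as with it, although 1 assembly gene was then lower (Unc45b) and Hspb7 was not called. At 4 weeks no gene of the 8 lists was called by limma (0, where 0.0275% of all genes were).

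Markers of other cell types were followed at 10 weeks as well, where 12.1% of all genes were called and 5.19% were higher. Of 8 fibroblast markers 7 were higher in 10-week KO hearts, summing to 20562 and 21047 there and to 6313 and 8375 in 10-week WT hearts. Of 6 macrophage markers 3 were higher, summing to 4388 and 5076 in KO hearts and to 3000 and 3003 in WT hearts. Of 6 endothelial markers 1 was higher, and their sums overlapped, at 1651 and 1890 in KO hearts and 1503 and 2025 in WT hearts. No marker of these lists was at 0. Their part in the results on the 10 genes was not tested. At 4 weeks the atrial markers summed to 13275 and 28263 in KO hearts and to 6368 and 9362 in WT hearts, beside the 4-week values of Acta1 and Myh7 given above, and their part was not tested either. At 10 weeks the atrial sums overlapped, at 23530 and 23822 in KO hearts and 16084 and 24338 in WT hearts.

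The genes whose profiles over the 8 arrays lay nearest were found by the root mean square difference of log2 values, each gene centred on its own mean, among the 9322 genes with a mean log2 of at least 6. Nearest to Acta1 was Chac1, which degrades glutathione, at 0.26, followed by Haus8 at 0.31 and Mthfd2, a mitochondrial folate enzyme, at 0.33, where the SD of Acta1 over the arrays was 1.05. Nearest to Myh7 (SD 1.54) were Lcn2, which binds siderophores, at 0.30, and the matricellular genes Ccn2 at 0.33 and Ccn5 at 0.39. Ccn2 was also nearest to Ankrd1, at 0.33 (SD 1.12). Uck2, a uridine-cytidine kinase, was nearest to Fhl1, at 0.17 (SD 1.05), and Cox6c, a subunit of cytochrome oxidase, to Tnni3, at 0.04 (SD 0.22). For the other 5 genes the nearest profile lay within 0.03 (Rab22a for Actc1) to 0.05 (Ppp1r16b for Myh7b).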

How the data were processed

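The deposited values were probe set intensities on the linear scale, 1 per array and probe set, and the submitters' processing notes name GCOS 1.3 and RMA as the tools the authors used. RMA corrects background, equalises the arrays' distributions and summarises probes, which can compress large changes. From these intensities log2 was taken with no pseudocount and no filter. After removal of 64 control probe sets, 45037 were left, of which 34945 name 1 gene, 932 several and 9160 none. Each of 18193 genes was represented by its brightest probe set over all arrays. A model with 1 mean per group was fitted in limma 3.58.1 (R 4.3.3; eBayes, no trend, not robust; 4 residual and 9.33 total degrees of freedom) over all 8 arrays, two-sided, with Benjamini-Hochberg adjustment over all genes. It was tested on simulated data. Nothing says how the replicates were processed, so p-values measure only the spread between these mice. The members, lists, tests and motifs were chosen with earlier results of these data known. All 10 genes were described. From each list up to 4 called genes with the largest difference were named (2 with the smallest p where none was), and for each of the 10 genes the 3 nearest profiles were found. The alternatives were other choices of probe set, a filter on dim genes, other scalings, eBayes settings, array weights, fewer groups, a replicate block and each array left out. Leaving out arrays for the lists and their named genes was chosen after seeing the data. The check of the targeted gene is not reported here.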

Additional observations from a re-analysis of the deposited data

Results flagged for a closer look

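The KO minus WT difference was larger at 10 than at 4 weeks for 3 genes, by the test of the change itself (limma interaction, Benjamini-Hochberg over 18193 genes). The change was 2.67 for Myh7 (adjusted p = 0.000814), 1.88 for Fhl1 (0.0348) and 1.99 for Ankrd1 (0.0483). Both 10-week KO arrays lay above both 10-week WT arrays for each gene, where 47.1% of all genes had no overlap in either direction. The 3 genes were picked from these same arrays, so the separation adds no support of its own. Groups of 2 allow no test of a sample that lies apart within its group.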

How the results depend on the processing

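The count of the 10 genes called at 10 weeks was 5, and 4 or 5 under every alternative run. The calls of Myh7, Acta1, Fhl1 and Ankrd1 held wherever the gene was tested, with ranges of 2.98 to 3.15, 2.12 to 2.79, 1.41 to 2.65 and 1.41 to 2.44. The only probe set of Acta1 has a name ending in _a_at, and an alternative that left out probe sets with such endings did not test Acta1. Whether that probe set reads other genes was not tested. The call of Tnni3 held in 12 of 18 alternatives (-0.60 to -0.42). At 4 weeks 1 gene was called with only the groups of the comparison, against 0. The change of the KO effect counted 3 genes, and 2 with every probe set tested singly (without Ankrd1), and 1 with the mean of the probe sets or arrays centred on their medians, and 1 to 4 with an array left out. From 4 to 10 weeks in WT hearts the count was 0 to 3 with an array left out. Of the differences between KO and WT that did not pass the test, 6 changed sign in some alternative. At 10 weeks Myh6 was -0.047 and Tpm2 -0.090 with the mean of the probe sets, and Actc1 -0.0097 with centred arrays. Without probe sets of such name endings Tpm2 was -0.43, read by a dim probe set at 4.94 to 5.87. With an array left out, 10-week values ran from -0.19 to 0.47 for Myh6, -0.31 to 0.063 for Myh7b, -0.14 to 0.15 for Actc1, -0.12 to 0.024 for Tnni1 and -0.079 to 0.18 for Tpm2, and Ankrd1 at 4 weeks from -0.36 to 0.21. The cause was not tested.

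Over all genes the 10-week count was 2199, and 3637 with every probe set tested, 959 with only the 10-week arrays and 1154 to 3244 with an array left out. The 4-week count was 5, and 10 with every probe set, 14 with array weights, 13 with only the 4-week arrays and 3 to 12 with an array left out. The change of the KO effect counted 379, and 211 with centred arrays and 40 to 1600 with an array left out. The WT age count was 21, and 44 with every probe set, 12 with centred arrays, 45 with trend and robust settings, 3 with only the WT arrays, 107 with the replicate block and 4 to 2946 with an array left out. The KO age count was 1908, and 3262 with every probe set and 527 to 3035 with an array left out.

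The replicate numbers are not said to pair the mice. The deviations of mice with the same number correlated across genes at 0.30 at 4 weeks and 0.23 at 10 weeks. With the replicate number as a block 5 of the 10 genes were called at 10 weeks and 2 for the change of the KO effect, where Ankrd1 missed the threshold (adjusted p = 0.0517).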
